A study of Mus musculus with 8 samples.

Results

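The genes described here are 46 named genes of DNA replication and cell division, followed through sorted mouse microglia, the resident macrophages of the brain. A gene was kept if it had at least 10 reads in at least 1 of the 8 bulk RNA-seq libraries, and 46 of the 46 named genes passed, out of 12582 genes that passed the same rule in the series. The rule used no difference between groups, but a gene that is high in a single group can enter through that group, and 14 of the 46 reached 10 reads only in a cuprizone library, against 32 that also reached it on normal diet. The genes were named with earlier results of these data known. The libraries came from C57BL/6 mice. The knockout (PRMT1Cx3cr1-KO, labelled PRMT1fl/fl; cx3r1cre-ert2) carries floxed Prmt1 with a tamoxifen-inducible Cre driven by Cx3cr1, a gene of microglia and other mononuclear phagocytes, and its control (PRMT1FL) carries the floxed alleles without Cre. Mice of both genotypes received tamoxifen, and the labels put their age at 4 to 6 weeks. Cells were dissociated from brain, freed of myelin and sorted as CD11b+ with intermediate CD45. On a 0.2% cuprizone diet (CPZ), labelled 5 weeks, there was 1 library each of PRMT1Cx3cr1-KO CD11c low, PRMT1FL CD11c high and PRMT1FL CD11c low microglia. On normal diet, labelled 11 weeks and with no CD11c gate named, there were 2 libraries of PRMT1Cx3cr1-KO and 3 of PRMT1FL microglia. The diet, the gate and the week label differ together between CPZ and normal-diet groups and cannot be told apart, nor can the loss of Prmt1 and the presence of the Cre driver.

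A dividing cell first loads the MCM helicase onto replication origins, then copies its DNA behind a sliding clamp from nucleotides made for the purpose, and finally condenses, aligns and separates its chromosomes and cuts itself apart. The genes for these steps are transcribed in waves: E2F factors switch on the replication genes around the start of S phase, and the DREAM, B-MYB and FOXM1 complexes, acting through a CHR element and neighbouring CCAAT boxes bound by NF-Y, govern the mitotic genes. Adult microglia are long-lived and divide rarely at rest, and they multiply when myelin is lost; cuprizone, a copper chelator, kills oligodendrocytes and is a standard way to strip myelin in mice.

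Some of the sequences in front of these genes hold the elements just named. RefSeq promoter windows on GRCm38.p6 were found for 39 of the 46 genes, and each was searched on both strands, in the 250 bases before the start, for CCAAT, for the CHR words TTTGAA and TTTAAA, and for the E2F words TTTGGCGC, TTTCCCGC and GGCGGGAA, of which TTTCCCGC read on the other strand overlaps GGCGGGAA. Mki67 and Top2a are shown as mitotic genes that carry both CCAAT and the CHR word, Mcm6 and Rrm1 as replication genes that carry CCAAT and an E2F word, and Mcm2 as a replication gene with CCAAT and the CHR word. Each line is 1 unbroken window of 250 bases that ends at the base before the start and is read in the direction of the gene, and capitals mark the words found. The windows lie at chr7:135716380-135716629 (Mki67, minus strand), chr11:99024190-99024439 (Top2a, minus strand), chr1:128359706-128359955 (Mcm6, minus strand), chr7:102441445-102441694 (Rrm1, plus strand) and chr6:88898781-88899030 (Mcm2, minus strand).
Mki67: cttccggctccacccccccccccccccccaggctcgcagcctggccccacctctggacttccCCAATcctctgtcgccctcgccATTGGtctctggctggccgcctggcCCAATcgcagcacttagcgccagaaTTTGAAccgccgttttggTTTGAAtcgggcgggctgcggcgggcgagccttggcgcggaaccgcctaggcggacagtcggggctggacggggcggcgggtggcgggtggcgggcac
Top2a: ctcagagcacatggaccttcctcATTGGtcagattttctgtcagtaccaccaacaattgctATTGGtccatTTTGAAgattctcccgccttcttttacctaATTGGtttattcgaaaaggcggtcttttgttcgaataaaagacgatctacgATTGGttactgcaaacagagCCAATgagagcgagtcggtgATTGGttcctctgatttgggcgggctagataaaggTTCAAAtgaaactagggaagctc
Mcm6: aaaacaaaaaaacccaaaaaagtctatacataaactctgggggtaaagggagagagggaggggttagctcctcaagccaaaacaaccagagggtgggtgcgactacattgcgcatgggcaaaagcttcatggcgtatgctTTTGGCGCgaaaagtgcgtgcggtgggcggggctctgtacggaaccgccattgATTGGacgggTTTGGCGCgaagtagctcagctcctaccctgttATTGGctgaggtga
Rrm1: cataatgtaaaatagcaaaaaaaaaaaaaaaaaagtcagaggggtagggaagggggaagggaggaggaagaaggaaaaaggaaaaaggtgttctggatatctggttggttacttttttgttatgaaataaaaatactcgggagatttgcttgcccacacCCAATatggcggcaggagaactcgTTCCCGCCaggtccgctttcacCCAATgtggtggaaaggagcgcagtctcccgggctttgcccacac
Mcm2: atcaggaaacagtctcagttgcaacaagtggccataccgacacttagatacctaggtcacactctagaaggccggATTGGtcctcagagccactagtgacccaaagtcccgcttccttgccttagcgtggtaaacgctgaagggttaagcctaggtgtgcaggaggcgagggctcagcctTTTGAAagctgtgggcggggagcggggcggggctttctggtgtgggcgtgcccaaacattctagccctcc

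CCAAT was in 30 of the 39 windows (76.9%), against 34.5% of the windows of 27025 genes. The share was 5 of 5 for the mitotic entry genes, 8 of 9 for the chromosome and kinetochore genes, 6 of 8 for the spindle and cytokinesis genes, 5 of 7 for the licensing genes and 4 of 7 for the fork and nucleotide genes. Top2a and Ube2c held the most, with 6 CCAAT each, and 17 genes held at least 2. TTTGAA was in 9 windows (23.1%, against 16.3% of all windows), each time with a CCAAT elsewhere in the window, and TTTAAA in 6 (15.4%, against 12.1%). Both shares were nearer to that of all windows than the share of CCAAT was. TTTGGCGC was in 2 windows (5.13%, against 0.437%), TTTCCCGC in 2 (5.13%, against 0.929%) and GGCGGGAA in 2 (5.13%, against 1.88%). Any E2F word was in 6 windows (15.4%, against 2.75%), 3 of the 7 licensing genes and 3 of the 7 fork and nucleotide genes, and in none of the windows of the mitotic roles. The windows of Cdt1, Tyms, E2f1, Nusap1 and Anln, 5 in all, held none of the words. For 37 genes the start used lay within 50 bases of the start of the transcript counted. It lay 466 bases away for E2f1 and 350 for Cdc6, so these windows may miss words near the other start. A match is a run of letters and not a measured binding site.

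**Figure D1:**
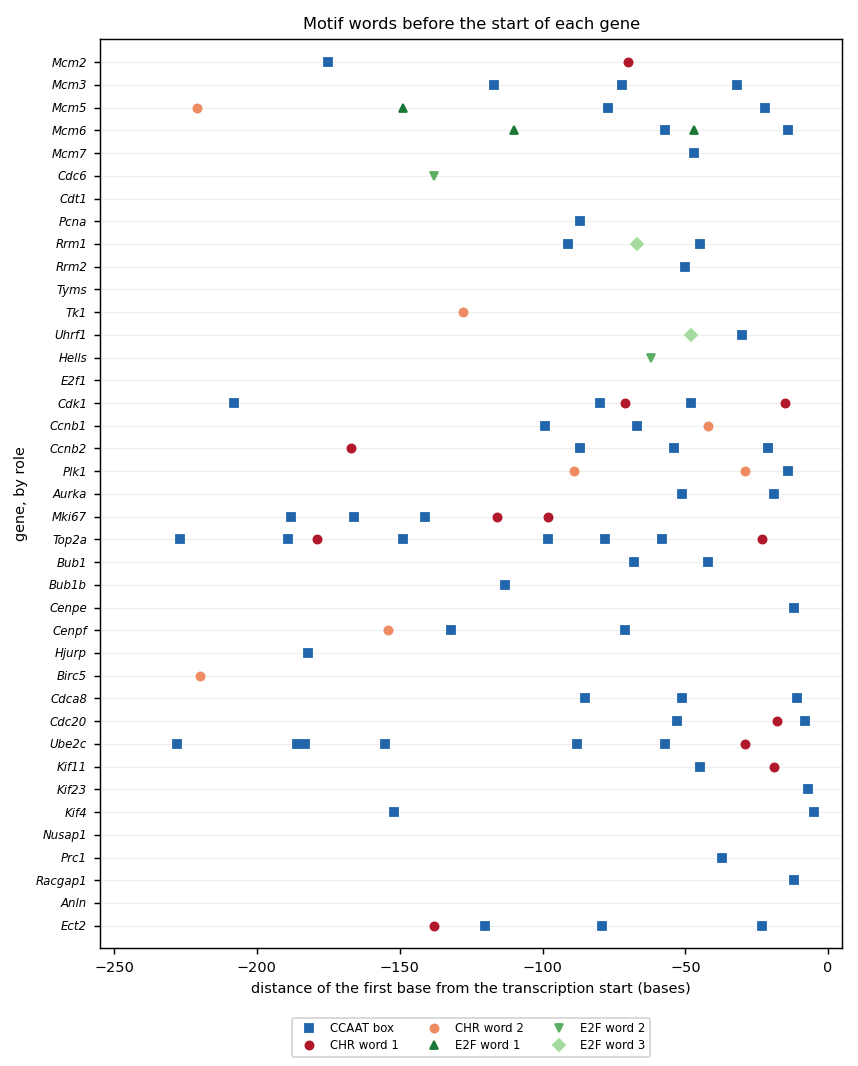
Positions of the motif words (x axis, bases from the transcription start to the first base of the word) in the 39 promoter windows found, with genes in order of their role. CHR word 1 is TTTGAA and CHR word 2 is TTTAAA, and E2F words 1, 2 and 3 are TTTGGCGC, TTTCCCGC and GGCGGGAA; the E2F words sit in the upper rows, which hold the licensing and fork genes, and CCAAT boxes (30 of 39 windows) run through the whole plot.

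Values are given as scaled reads, the reads recovered from the deposited tables divided by a size factor for the library. Libraries held 2931064 reads in total for PRMT1Cx3cr1-KO CPZ CD11c low, 1577209 for PRMT1FL CPZ CD11c high, 3463171 for PRMT1FL CPZ CD11c low, 3512691 and 3218590 for the PRMT1Cx3cr1-KO normal-diet libraries, and between 2479979 and 3265018 for the PRMT1FL normal-diet libraries. Of the 46 genes, 46, 40 and 46 had at least 10 reads in those CPZ libraries in that order, against 21 to 30 in the normal-diet libraries, so the normal-diet values of many of these genes rest on few reads. All 10 microglia markers were tested, and none was called in a CPZ library against normal diet of its genotype. They were not flat, with median log2 folds of 0.10, 0.68 and -0.48 in the CPZ libraries in that order. In PRMT1FL CPZ CD11c high against CD11c low their median was 1.02, with 9 above 0 and 1 below. Prmt1 itself was not called in the knockout, at a log2 fold of -0.34 against PRMT1FL on normal diet (limma, adjusted p = 0.636) and -0.54 within CPZ CD11c low cells (limma, adjusted p = 0.256), so the transcript gives no clear check of the genotype labels. Changes are log2 folds on scaled reads plus a pseudocount of 1, which understates the change of genes with few reads. A gene is called when its limma p, adjusted by Benjamini-Hochberg over 12582 genes, is under 0.05 and its log2 fold is over 1 in size. Each CPZ group is a single library whose spread limma takes from the replicated groups, with 3 residual degrees of freedom. On simulated data this fit recovered only 32.5% to 43.5% of 2-fold changes, which lie at the fold threshold. A gene without a call may therefore still differ by that much. The labels do not say whether replicates came from separate animals, so the p-values measure only the spread between these libraries.

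On CPZ, replication and division genes stood higher in all 3 libraries. For 39 of the 46 genes (84.8%) every CPZ library lay above every normal-diet library, a pattern found in 18.6% of all genes tested. The exceptions were Mcm3, Mcm7, Gmnn, Pcna, Tyms, Plk1 and Hjurp. For the 14 genes that reached 10 reads only in a CPZ library, such an order was made likelier by how they entered. They were Cdc6, Gmnn, Rrm2, Tk1, Ccnb1, Aurka, Bub1, Aurkb, Cdca8, Ube2c, Kif23, Kif20a, Kif4 and Nusap1. Their positive folds and calls against normal diet carry the same limit, and the 39 genes are not split by it. In bulk RNA, more dividing cells and more RNA per dividing cell cannot be told apart.

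**Figure D2:**
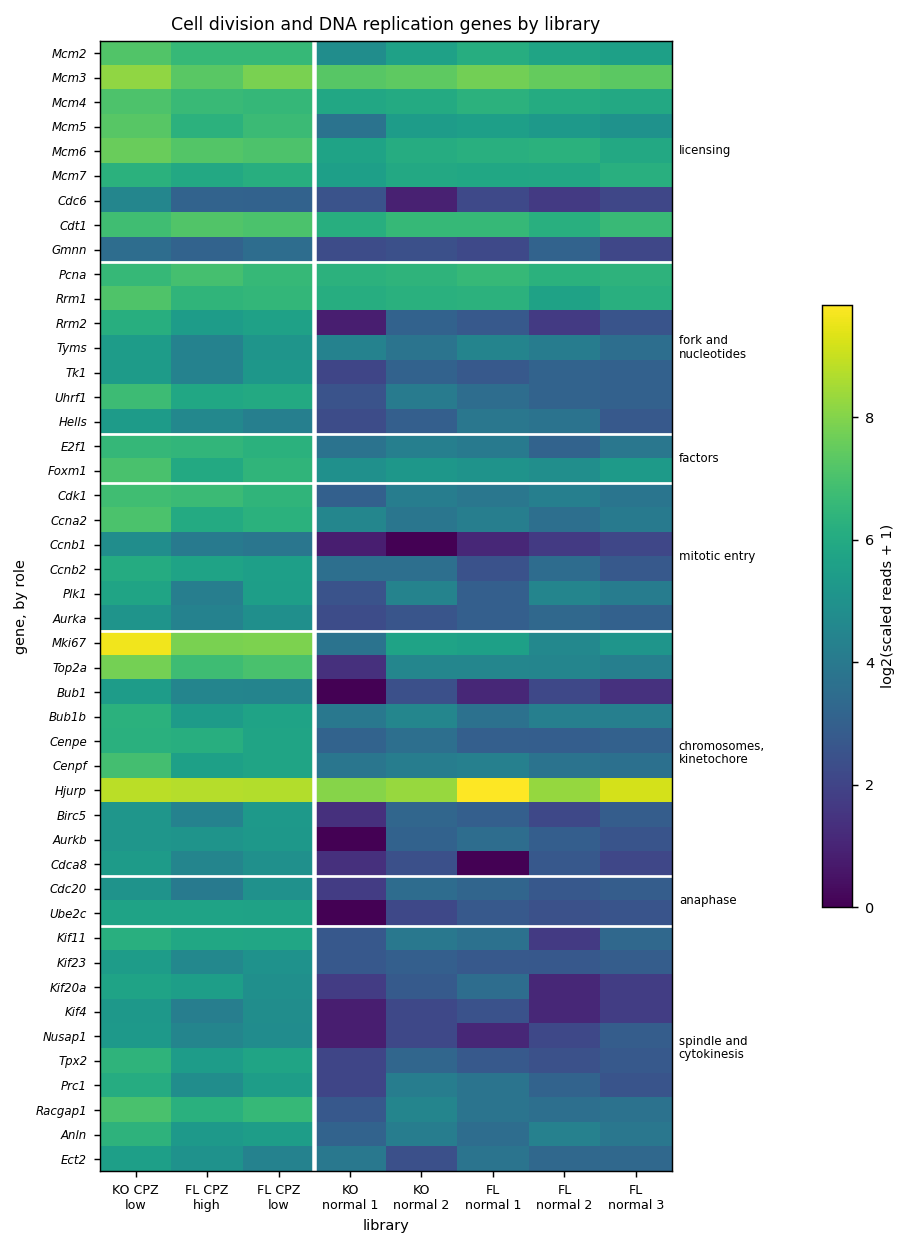
Level of each of the 46 genes (rows, by role) in each of the 8 libraries (columns), as log2(scaled reads + 1), with CPZ libraries left of the vertical white line. The left 3 columns are brighter than the right 5 for 39 of the 46 genes; Hjurp is bright throughout, and Mki67 in the PRMT1Cx3cr1-KO CPZ CD11c low library, at 779 scaled reads, is the highest value in a CPZ column.

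In PRMT1Cx3cr1-KO CPZ CD11c low cells against PRMT1Cx3cr1-KO on normal diet, 33 of the 46 genes were called higher and 0 lower, against 4.73% and 2.86% of all genes tested. The median log2 fold of the 46 genes was 2.78, against -0.01 over all genes. In PRMT1FL CPZ CD11c high cells against PRMT1FL on normal diet, 21 were called higher and 0 lower, against 8.85% and 7.04% of all genes, with a median of 1.67 against 0.00. In PRMT1FL CPZ CD11c low cells against PRMT1FL on normal diet, 26 were called higher and 0 lower, against 9.82% and 3.67% of all genes, with a median of 2.21 against 0.01. Of the genes that reached 10 reads on normal diet as well, 22, 13 and 15 of 32 were called higher in these comparisons, in the same order, and of those that did not, 11, 8 and 11 of 14. The PRMT1FL comparisons share their 3 normal-diet libraries, so their calls are not independent of each other. Side by side, 19 genes were called higher in each of the 3 comparisons, 7 in 2 of them, 9 in 1 and 11 in none. This overlap was counted for the 46 genes only, so it has no share of all genes to be read against. Without PRMT1Cx3cr1-KO normal-diet replicate 1 the knockout comparison called 18 genes, without PRMT1FL normal-diet replicate 3 the CD11c low comparison called 17, and with no filter on low reads the 3 comparisons called 8, 9 and 9. The median of the knockout comparison was 2.36 without PRMT1Cx3cr1-KO replicate 1 and 3.15 without replicate 2.

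**Figure D3:**
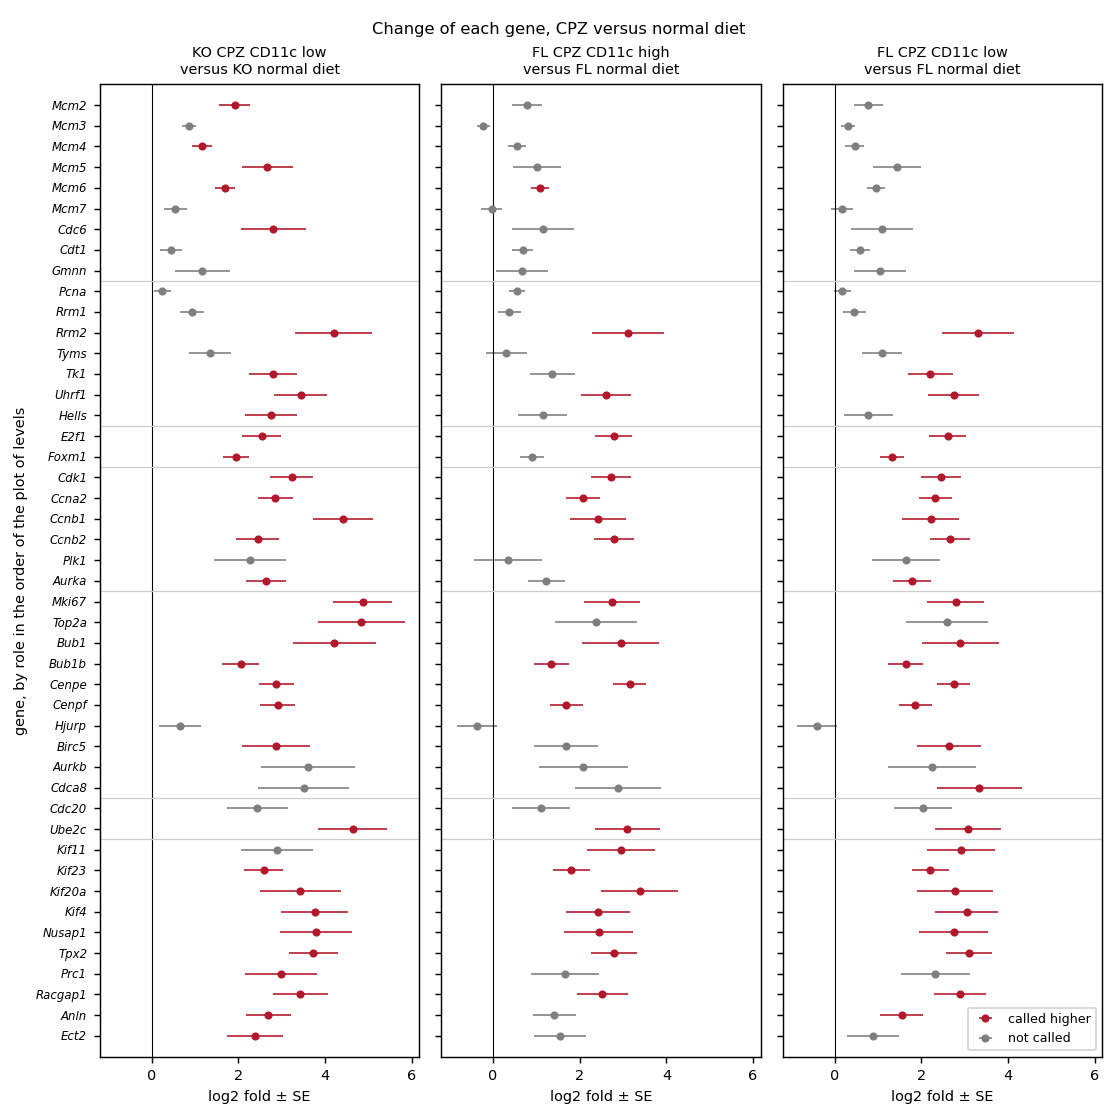
Log2 fold of each gene (points, with limma standard errors as bars) in each CPZ library against normal diet of the same genotype, with genes in order of their role and called genes in red. Most points lie right of 0, and among the genes nearest 0 are Mcm7, Cdt1, Pcna and Hjurp, while Mki67 at 4.87 is farthest to the right in the knockout panel.

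The licensing genes, which load the replicative helicase onto origins, had the lowest median fold of all roles in each CPZ comparison. Called higher were 5 of 9 in PRMT1Cx3cr1-KO CPZ CD11c low (Mcm2, Mcm4, Mcm5, Mcm6 and Cdc6), 1 of 9 in PRMT1FL CPZ CD11c high (Mcm6) and 0 of 9 in PRMT1FL CPZ CD11c low, with medians of 1.17, 0.68 and 0.78. Mcm3, a helicase subunit and the gene of this role with the most reads (NM_008563, chr1 20802968 to 20820312), had 294 scaled reads in PRMT1Cx3cr1-KO CPZ CD11c low, 157 in PRMT1FL CPZ CD11c high and 228 in PRMT1FL CPZ CD11c low, against 155 and 168 in PRMT1Cx3cr1-KO and 210, 181 and 164 in PRMT1FL on normal diet. Both CD11c low libraries lay above all 5 normal-diet libraries, whereas the CD11c high library fell within them. Its log2 folds of 0.86, -0.23 and 0.31 were not called, the knockout one for its size alone (limma, adjusted p = 0.0112). Mcm5, another subunit, gave the widest split between CPZ libraries and normal diet among the helicase genes in the knockout, at a log2 fold of 2.67, and was chosen for that after its values were seen. Mcm7 had log2 folds of 0.54, -0.04 and 0.17. Cdt1, the loading factor, had 0.45, 0.68 and 0.59, and Gmnn, whose protein geminin holds Cdt1 back, had 1.17, 0.67 and 1.05, none of them called. Cdc6, the partner of Cdt1 in loading, had 21.8 scaled reads in the knockout CPZ library, 7.76 and 7.42 in the PRMT1FL CPZ libraries in the same order, and at most 4.70 on normal diet.

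Of the 7 fork and nucleotide genes 4, 2 and 3 were called higher. Pcna, the sliding clamp of the polymerases and the gene of this role with the most reads (NM_011045, chr2 132249286 to 132253180), had 95.5 scaled reads in PRMT1Cx3cr1-KO CPZ CD11c low, 122 in PRMT1FL CPZ CD11c high and 94.96 in PRMT1FL CPZ CD11c low, against 79.2 and 82.1 in PRMT1Cx3cr1-KO and 95, 75.6 and 81.4 in PRMT1FL on normal diet. The CD11c high library stood clear of the normal-diet range, both CD11c low libraries lay at its top, and no fold was called, at 0.24, 0.54 and 0.18. Rrm1 and Rrm2 encode the large and small subunits of ribonucleotide reductase, which makes the DNA building blocks. Rrm1 was not called, at 0.93, 0.38 and 0.46, whereas Rrm2 rose in all 3 comparisons, by 4.20, 3.11 and 3.31. Tyms, the thymidylate synthase, was not called (1.34, 0.31 and 1.09), and Tk1, the thymidine kinase, rose in both CD11c low libraries (2.80 in PRMT1Cx3cr1-KO and 2.21 in PRMT1FL) and had 1.37 in CD11c high. Uhrf1, which brings the maintenance methyltransferase to newly copied DNA, rose in all 3, by 3.44, 2.60 and 2.75. Hells, a chromatin remodeller that assists DNA methylation, rose in the knockout comparison by 2.75 and was not called in the PRMT1FL ones, at 1.15 and 0.78.

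The transcription factors of both waves rose. Foxm1, which drives mitotic genes (NM_008021, chr6 128362994 to 128375886), had 128 scaled reads in PRMT1Cx3cr1-KO CPZ CD11c low, 62.1 in PRMT1FL CPZ CD11c high and 84.6 in PRMT1FL CPZ CD11c low, against 29.8 and 35.5 in PRMT1Cx3cr1-KO and 32.4, 27.8 and 39.9 in PRMT1FL on normal diet. All CPZ libraries lay above all normal-diet libraries. The log2 fold was 1.94 ± 0.30 in PRMT1Cx3cr1-KO CD11c low (SE; limma, adjusted p = 0.00504) and 1.33 ± 0.28 in PRMT1FL CD11c low (adjusted p = 0.0116), while 0.89 ± 0.28 in CD11c high (adjusted p = 0.0402) stayed under the fold threshold, which it passed without PRMT1FL replicate 3, at 1.02. E2f1, a factor of the replication wave, rose in all 3 comparisons, by 2.54, 2.79 and 2.61.

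Mitotic entry genes, which encode the kinases and cyclins that start mitosis, were called higher in 5, 4 and 5 of 6 cases in these comparisons, in the same order. Ccna2 encodes cyclin A2, which acts from S phase to early mitosis (NM_009828, chr3 36564865 to 36573038). It had 132 scaled reads in PRMT1Cx3cr1-KO CPZ CD11c low, 64.0 in PRMT1FL CPZ CD11c high and 76.4 in PRMT1FL CPZ CD11c low, against 21.9 and 13.5 in PRMT1Cx3cr1-KO and 17.4, 11.1 and 15.5 in PRMT1FL on normal diet. The groups did not overlap, and Ccna2 rose by 2.86 ± 0.41 in PRMT1Cx3cr1-KO CD11c low, by 2.08 ± 0.39 in PRMT1FL CD11c high and by 2.33 ± 0.39 in PRMT1FL CD11c low (SE; limma, adjusted p = 0.00404, 0.00467 and 0.00475). Of its exon bases 12.5% overlap Exosc9 on the other strand. Cdk1, the kinase of mitosis, rose by 3.23, 2.72 and 2.46, and the B cyclins that activate it rose as well, Ccnb1 by 4.41, 2.42 and 2.21 and Ccnb2 by 2.45, 2.79 and 2.66. Aurka, a kinase of the spindle poles, rose in both CD11c low libraries, by 2.64 in PRMT1Cx3cr1-KO and 1.78 in PRMT1FL. Plk1, a kinase at many steps of mitosis, was not called in any comparison (2.27, 0.35 and 1.65). Its 17.5 scaled reads in CD11c high lay inside the normal-diet range of 4.70 to 21.1, and its 52.0 and 44.5 in PRMT1Cx3cr1-KO and PRMT1FL CD11c low lay above it.

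Of the 10 chromosome and kinetochore genes 7 were called higher in the knockout comparison, 5 in CD11c high and 7 in CD11c low PRMT1FL cells. Mki67 encodes Ki-67, the coat protein of mitotic chromosomes that is used as a marker of cycling cells (NM_001081117, chr7 135689788 to 135716379). It had 779 scaled reads in PRMT1Cx3cr1-KO CPZ CD11c low, 231 in PRMT1FL CPZ CD11c high and 239 in PRMT1FL CPZ CD11c low, against 12.5 and 51.6 in PRMT1Cx3cr1-KO and 47.5, 23.4 and 34.2 in PRMT1FL on normal diet. Every CPZ library was far above every normal-diet library, and the knockout library stood apart from both PRMT1FL ones. Mki67 rose by 4.87 ± 0.69 in PRMT1Cx3cr1-KO CD11c low, by 2.74 ± 0.65 in PRMT1FL CD11c high and by 2.79 ± 0.65 in PRMT1FL CD11c low (SE; limma, adjusted p = 0.00379, 0.0131 and 0.0166). Its fold in the knockout was 3.89 without PRMT1Cx3cr1-KO normal-diet replicate 1 and 5.85 without replicate 2, called both times; with no filter on low reads none of its 3 folds was called, nor was the CD11c low one without PRMT1FL replicate 3. Top2a encodes the topoisomerase that untangles sister DNA before it is pulled apart (NM_011623, chr11 98992947 to 99024189). It had 220 scaled reads in PRMT1Cx3cr1-KO CPZ CD11c low, 109 in PRMT1FL CPZ CD11c high and 128 in PRMT1FL CPZ CD11c low, against 1.57 and 22.0 in PRMT1Cx3cr1-KO and 22.0, 21.1 and 17.9 in PRMT1FL on normal diet. The CPZ and normal-diet values did not overlap, and PRMT1Cx3cr1-KO replicate 1, with 2 reads, was far under the other 4 normal-diet libraries. Top2a rose in the knockout comparison by 4.84 ± 1.00 (SE; limma, adjusted p = 0.0166), and its log2 folds of 2.37 in CD11c high and 2.60 in CD11c low PRMT1FL cells missed the threshold (adjusted p = 0.0878 and 0.0726). The knockout fold was 3.26 without PRMT1Cx3cr1-KO normal-diet replicate 1 and 6.41 without replicate 2, called both times, and it was not called without PRMT1FL replicate 3 or with no filter on low reads. Without either of the knockout replicates both PRMT1FL folds were called, with nearly the same size.

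Hjurp, the chaperone that deposits the centromere histone CENP-A (NM_198652, chr1 88258856 to 88277579), did not follow the other genes of this role. It had 452 scaled reads in PRMT1Cx3cr1-KO CPZ CD11c low, 421 in PRMT1FL CPZ CD11c high and 414 in PRMT1FL CPZ CD11c low, against 261 and 314 in PRMT1Cx3cr1-KO and 908, 308 and 580.5 in PRMT1FL on normal diet. The PRMT1FL normal-diet libraries spread around the CPZ values on both sides. The log2 folds of 0.66, -0.37 and -0.40 were not called. The checkpoint kinases Bub1 (4.22, 2.94 and 2.90) and Bub1b (2.06, 1.34 and 1.64) rose in all 3 comparisons, as did the kinetochore proteins Cenpe (2.88, 3.15 and 2.75) and Cenpf (2.91, 1.69 and 1.86). Birc5, Aurkb and Cdca8 encode parts of the chromosomal passenger complex, which corrects faulty attachments. Birc5 rose in both CD11c low libraries (2.87 in PRMT1Cx3cr1-KO and 2.63 in PRMT1FL), Cdca8 rose in PRMT1FL CD11c low by 3.34 and was not called at 3.51 in PRMT1Cx3cr1-KO and 2.88 in CD11c high, and Aurkb was not called at 3.62, 2.08 and 2.25.

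Ube2c and Cdc20 serve the anaphase-promoting complex, which marks mitotic proteins for destruction. Ube2c, its ubiquitin-conjugating enzyme (NM_026785, chr2 164769929 to 164772902), had 51.1 scaled reads in PRMT1Cx3cr1-KO CPZ CD11c low, 50.5 in PRMT1FL CPZ CD11c high and 49.7 in PRMT1FL CPZ CD11c low, against 0 and 3.38 in PRMT1Cx3cr1-KO and 5.79, 4.45 and 4.88 in PRMT1FL on normal diet. The 3 CPZ libraries were nearly equal and the groups did not overlap. Ube2c rose by 4.64 ± 0.80 in PRMT1Cx3cr1-KO CD11c low, by 3.10 ± 0.75 in PRMT1FL CD11c high and by 3.08 ± 0.75 in PRMT1FL CD11c low (SE; limma, adjusted p = 0.00821, 0.0148 and 0.0201). Its fold in the knockout was 3.56 without PRMT1Cx3cr1-KO normal-diet replicate 1 and 5.67 without replicate 2, called both times; none of its 3 folds was called with no filter, nor was the PRMT1FL CD11c low one without PRMT1FL replicate 2 or 3. The normal-diet libraries held 0 to 6 reads of it, so it was kept only through its CPZ reads, which made positive folds likelier. Of its exon bases 22.8% overlap Tnnc2 on the other strand. Cdc20, the activator of the complex, was not called at 2.44, 1.11 and 2.04.

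The spindle and cytokinesis genes were called higher in 9, 7 and 8 of 10 cases. Racgap1 encodes a part of centralspindlin, which organises the middle of the spindle and the cleavage furrow (NM_001253809, chr15 99620496 to 99651656). It had 129 scaled reads in PRMT1Cx3cr1-KO CPZ CD11c low, 73.8 in PRMT1FL CPZ CD11c high and 95.7 in PRMT1FL CPZ CD11c low, against 5.49 and 21.1 in PRMT1Cx3cr1-KO and 12.7, 11.1 and 12.2 in PRMT1FL on normal diet. No normal-diet library reached a CPZ one, and PRMT1Cx3cr1-KO held both the lowest and the highest normal-diet value. Racgap1 rose by 3.44 ± 0.63 in PRMT1Cx3cr1-KO CD11c low, by 2.52 ± 0.59 in PRMT1FL CD11c high and by 2.89 ± 0.59 in PRMT1FL CD11c low (SE; limma, adjusted p = 0.0105, 0.0127 and 0.0104). The knockout fold was 2.55 without PRMT1Cx3cr1-KO normal-diet replicate 1 and 4.32 without replicate 2, called both times, and none of the 3 was called with no filter. Its partner Kif23 rose by 2.59, 1.81 and 2.21. The motors of the anaphase spindle Kif20a (3.44, 3.39 and 2.78) and Kif4 (3.76, 2.42 and 3.04) and the spindle assembly factors Tpx2 (3.74, 2.80 and 3.10) and Nusap1 (3.80, 2.44 and 2.75) rose in all 3 comparisons. Kif11, the motor that pushes spindle poles apart, rose in PRMT1FL CD11c high by 2.95 and CD11c low by 2.92, and its 2.89 in the knockout missed the threshold (limma, adjusted p = 0.0525). Anln, which builds the contractile ring, rose in PRMT1Cx3cr1-KO by 2.69 and PRMT1FL CD11c low by 1.55. Prc1, which bundles midzone microtubules, and Ect2, which activates the furrow, rose in the knockout comparison, by 2.98 and 2.38. Exon bases on the other strand are shared by Kif20a with Cdc23 (29.3%), Kif4 with Pdzd11 (15.1%) and Prc1 with Rccd1 (11.1%), and the strand setting of the counting is not given in the sources used here, so the values of these genes, Ccna2 and Ube2c are uncertain to that degree.

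Per length, the order of the genes differed between the diets. On normal diet Pcna was highest, with a mean of 66.2 scaled reads per kb over the 5 libraries, followed by Mcm3 (58.6), Hjurp (56.3), Cdt1 (39.6) and Mcm7 (25.2), all genes that were not called in any CPZ comparison. Mki67, at 3.37 per kb, was in place 24 of 46, Top2a, at 3.29, in place 25 and Ube2c, at 4.02, in place 21. Over the 3 CPZ libraries Pcna (83.5), Mcm3 (75.6) and Cdt1 (59.1) still led, and Ube2c (54.8) stood in place 4, Mki67 (41.4) in place 6 and Top2a (29.5) in place 15.

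Summed reads gave the lowest ratios for the licensing and fork genes in the knockout. In the PRMT1FL libraries they were lowest for the licensing genes and for the chromosome genes with Hjurp included. The 45 genes other than Hjurp took 1608 RPM (reads per 1000000 reads of a library) in PRMT1Cx3cr1-KO CPZ CD11c low (95% counting interval 1562 to 1654), 854.7 in PRMT1FL CPZ CD11c high (809.7 to 901.5) and 1116 in PRMT1FL CPZ CD11c low (1081 to 1152), against 291.8 and 417.9 in PRMT1Cx3cr1-KO and 413.7, 359.7 and 388.4 in PRMT1FL on normal diet. Intervals of reads cover counting error only. Against the mean of the normal-diet libraries of its genotype, all 46 genes together held 3.85 times as much in the knockout library, 1.65 times in PRMT1FL CD11c high and 2.12 times in PRMT1FL CD11c low. Without Hjurp, which was left out after its values were seen, the ratios were 4.53, 2.21 and 2.88. The licensing genes held 2.30, 1.25 and 1.65 times as much and the fork and nucleotide genes 2.71, 1.70 and 2.11 times. The mitotic entry genes held 7.13, 4.00 and 5.21 times and the spindle and cytokinesis genes 8.46, 4.56 and 6.11 times as much. The chromosome and kinetochore genes, Hjurp included, held 4.77, 1.30 and 1.62 times, the anaphase genes 10.3, 5.09 and 7.36 times and the transcription factors 4.53, 2.96 and 3.82 times as much. Hjurp alone gave 784 of 892, 277 of 367 and 713 of 842 reads of the chromosome role in the PRMT1FL normal-diet libraries. The low PRMT1FL ratios of that role therefore rest mostly on this gene and do not describe its other genes. These ratios are descriptions, with no test between roles. Ratios of roles that hold genes kept only through CPZ reads, such as Ube2c in the anaphase role, were made higher by that too.

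**Figure D4:**
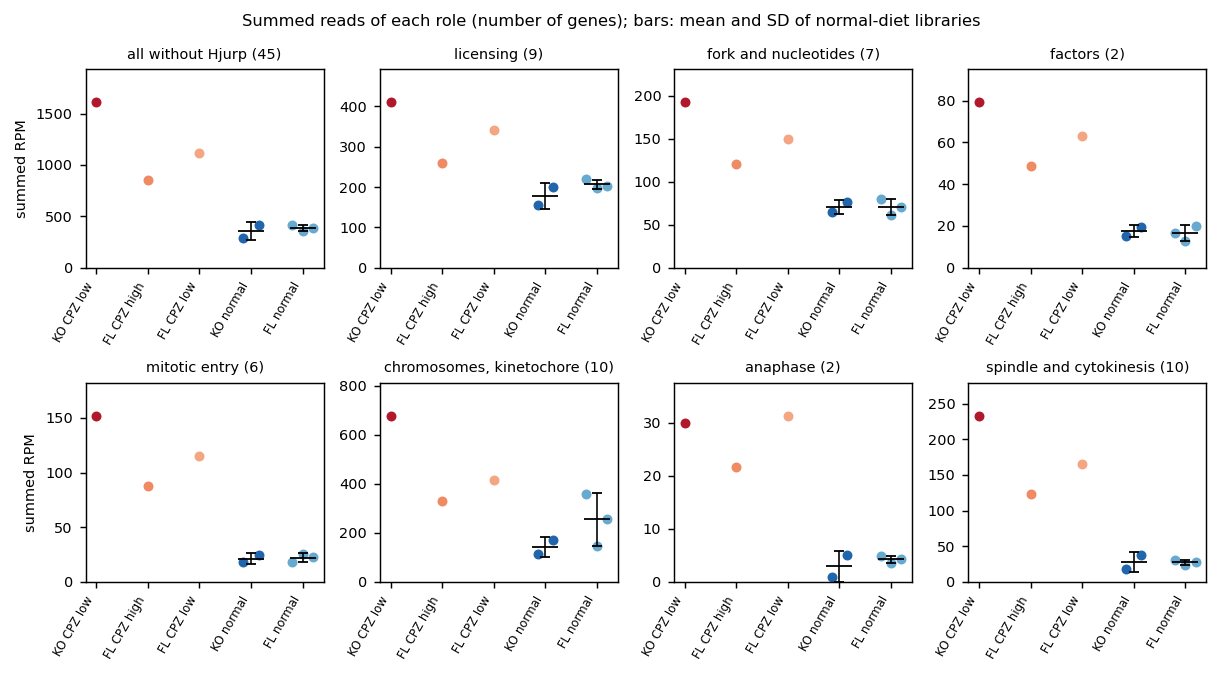
RPM summed over the genes of each role (panels; the number of genes in parentheses) in each library, each with its own y axis from 0; points are libraries, and bars give the mean and SD of the 2 PRMT1Cx3cr1-KO and 3 PRMT1FL normal-diet libraries. In the first panel the CPZ libraries stand at 1608, 854.7 and 1116, above all normal-diet libraries (291.8 to 417.9), and in the chromosome panel, which includes Hjurp, PRMT1FL normal-diet replicate 1 lies above the CD11c high library.

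No difference by genotype passed the test on normal diet. By limma 0 of 46 were called higher and 0 lower, against 0% and 0% of all genes tested, 3 genes (Ccnb1, Hjurp and Ube2c) had an unadjusted p under 0.05, against 8.06% of all genes, and edgeR and DESeq2 called 0. The median log2 fold was -0.23, with 33 of 46 below 0, against 6209 of 12582 genes tested. Mki67 averaged 32.1 ± 27.6 scaled reads in PRMT1Cx3cr1-KO and 35.0 ± 12.1 in PRMT1FL (SD, n = 2 and 3), a log2 fold of -0.38 (limma, adjusted p = 0.854). Foxm1 averaged 32.7 ± 4.07 in PRMT1Cx3cr1-KO and 33.4 ± 6.10 in PRMT1FL, and Pcna 80.6 ± 2.06 and 84.0 ± 9.95 in the same groups. Hjurp averaged 288 ± 37.4 in PRMT1Cx3cr1-KO and 599 ± 301 in PRMT1FL, a log2 fold of -0.93 (limma, adjusted p = 0.599) with PRMT1FL replicate 2, at 308, inside the range of the knockout. The 2 knockout libraries differed between themselves: replicate 1 was the lowest of the 5 normal-diet libraries for 29 of 46 genes (63%), against 23.7% of all genes, and without it the median turned to 0.15. Both knockout libraries lay below all PRMT1FL libraries for 3 genes (6.52%), against 12.6% of all genes.

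Within CPZ CD11c low cells the knockout library read higher for most of the 46 genes, and none of them passed the test. PRMT1Cx3cr1-KO CPZ CD11c low against PRMT1FL CPZ CD11c low gave a median log2 fold of 0.49, with 43 of 46 above 0, against 6243 of 12582 genes tested. Cdt1 (-0.26), Birc5 (-0.14) and Aurkb (-0.08) were below 0. By limma 0 were called higher and 0 lower, against 0.223% and 0.461% of all genes, 1 gene (Cenpf) had an unadjusted p under 0.05, against 22% of all genes, edgeR called 2 higher (Mki67 and Cenpf), against 1.57% of all genes, and DESeq2 called 0. The largest difference was that of Mki67, with 823 reads in PRMT1Cx3cr1-KO and 322 in PRMT1FL, a ratio of scaled reads of 3.26 with an exact 95% counting interval of 2.86 to 3.72, and a log2 fold of 1.70 ± 0.80 (SE; limma, adjusted p = 0.255). Next came Cdc6 at 2.93 (1.34 to 6.90), Ect2 at 2.35 (1.43 to 3.95), Hells at 2.28 (1.36 to 3.94) and Cenpf at 2.26 (1.68 to 3.07). Top2a and Ccna2 both stood at 1.72, with intervals of 1.41 to 2.11 and 1.32 to 2.24, and Mcm3 at 1.29 (1.10 to 1.51). Ube2c, at 1.03 (0.705 to 1.49), and Pcna, with 95.5 scaled reads in PRMT1Cx3cr1-KO and 94.96 in PRMT1FL, stood near 1 in ratio. The interval lay above 1 for 25 of 46 genes, below 1 for 0 and across 1 for 21, and the median ratio was 1.42. These intervals compare 1 library with 1 library and leave out the spread between mice. The median squared difference between replicates on normal diet was 1.76 to 2.33 times that of counting alone. How often such intervals leave out 1 over all genes was not computed, so the count of 25 has no background. Outside the 46, 101 other replication and mitotic genes were tested in this comparison. Their median log2 fold was 0.305, with 73 above 0 and 28 below, and 0 were called. Summed RPM in PRMT1Cx3cr1-KO were 1.02 times those of PRMT1FL for other replication genes and 1.07 times for other mitotic genes. For the genes described here without Hjurp the ratio was 1.44. The difference was therefore smaller in these other lists than among the 46.

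No difference by CD11c gate passed the test in PRMT1FL cells on CPZ. CD11c high against CD11c low gave a median log2 fold of -0.17, and limma called 0 higher and 0 lower, against 0.389% and 0.699% of all genes, with 1 gene (Mcm3) at an unadjusted p under 0.05, against 22.1%, and 0 calls by edgeR or DESeq2. Mki67 had 231 scaled reads in CD11c high and 239 in CD11c low, a ratio of 0.967 (0.777 to 1.20). The counting interval spanned 1 for 44 of 46 genes, with Mcm3 at 0.688 (0.532 to 0.881) and Plk1 at 0.392 (0.171 to 0.796) below it. Here too the share over all genes was not computed. The median ratio was 0.887, and the summed RPM without Hjurp were 0.766 times those of CD11c low. By scaled reads the sum over all 46 genes was closer, at 3037 scaled reads in CD11c high and 3282 in CD11c low. PRMT1Cx3cr1-KO CD11c low against PRMT1FL CD11c high, which differ in genotype and gate, gave a median log2 fold of 0.80 with 44 of 46 above 0, against 6225 of 12582 genes tested. There limma called 0 higher and 0 lower, against 1.78% and 0.986% of all genes, with 3 genes (Mcm3, Foxm1 and Cenpf) at an unadjusted p under 0.05, against 24.5%. There edgeR called 1 higher (Mki67), against 1.43% of all genes, and DESeq2 called 0. Mki67 was 3.37 times as high (2.78 to 4.12), and Mcm3, at a log2 fold of 0.90 (limma, adjusted p = 0.0375), was under the fold threshold.

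**Figure D5:**
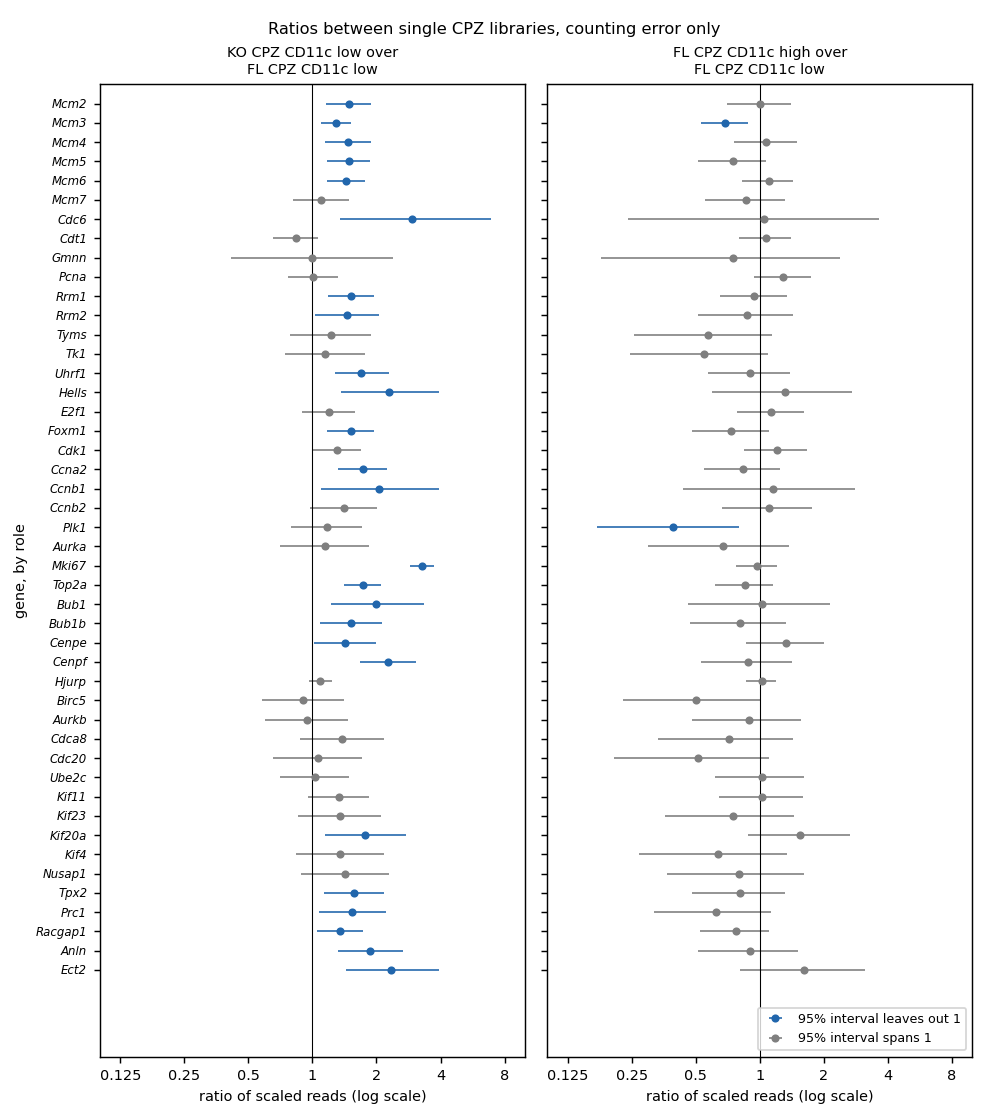
Ratio of scaled reads between single CPZ libraries for each gene (points, log axis) with exact 95% counting intervals (bars), PRMT1Cx3cr1-KO CD11c low over PRMT1FL CD11c low on the left and PRMT1FL CD11c high over PRMT1FL CD11c low on the right; blue intervals leave out 1. On the left 25 intervals lie above 1, with Mki67 at 3.26 and the highest, while on the right 44 of 46 span 1. Intervals were computed for these 46 genes only.

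The difference between the CPZ changes of the genotypes was tested in CD11c low cells as an interaction, and it too was positive for most genes without a call. The change in PRMT1Cx3cr1-KO minus that in PRMT1FL had a median of 0.66 on the log2 scale, with 42 of 46 above 0, against 6418 of 12582 genes tested. By limma 0 were called higher and 0 lower, against 0.00795% and 0.119% of all genes, 5 genes (Mcm2, Mcm3, Mcm6, Hells and Ccnb1) had an unadjusted p under 0.05, against 17.9% of all genes, and edgeR and DESeq2 called 0. It was 2.08 ± 0.95 for Mki67 (SE; limma, adjusted p = 0.296), 2.25 ± 1.38 for Top2a (adjusted p = 0.428) and 0.55 ± 0.22 for Mcm3 (adjusted p = 0.248). The median rested on the knockout normal-diet libraries: it was 0.18 without replicate 1 and 1.17 without replicate 2.

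Genes of the same pathways outside the 46 were called as well. They were listed with earlier results of these data known, so they are no independent support. Of all genes tested, 4.73%, 8.85% and 9.82% were called higher and 2.86%, 7.04% and 3.67% lower, in the order of the libraries below. Among 52 other mitotic genes tested, 34 were called higher in PRMT1Cx3cr1-KO CPZ CD11c low, 26 in PRMT1FL CPZ CD11c high and 28 in PRMT1FL CPZ CD11c low, with medians of 2.48, 1.64 and 1.72. Among 49 other replication genes the counts were 15, 11 and 11, with medians of 1.07, 0.59 and 0.71. The ones with the most reads were flat, as with Rfc1 (0.24, 0.02 and -0.02), which loads the clamp, and Dnmt1 (0.31, -0.11 and 0.10), the maintenance methyltransferase. Of 8 cyclins and kinases of G1, 0 were called in any of these comparisons. Of 13 inhibitors of the cycle, 2 were called higher and 1 lower in the knockout library, 4 higher and 1 lower in CD11c high, and 4 higher and 0 lower in CD11c low. Cdkn2a, the inhibitor locus with the largest fitted fold in each comparison, was named after its values were seen and was called in all 3. It had 29, 6 and 28 reads in the CPZ libraries in that order, against 0 and 1 in PRMT1Cx3cr1-KO and 1, 0 and 0 in PRMT1FL on normal diet, so its fold depends on the pseudocount. Cdkn2c, which encodes an inhibitor of the G1 kinases, was chosen likewise and rose by 1.99, 1.85 and 2.01. Cdkn1a, the p21 inhibitor chosen likewise, rose in PRMT1FL CD11c high by 1.48 and CD11c low by 1.34, with 0.81 in the knockout.

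Markers of other cells also differed between these libraries. For the counts called below, the shares of all genes tested were 4.73%, 8.85% and 9.82% higher and 2.86%, 7.04% and 3.67% lower. Lists this short with 1 gene called are near those shares. Neutrophil markers summed to 2.05 RPM in PRMT1Cx3cr1-KO CPZ CD11c low, 17.1 in PRMT1FL CPZ CD11c high and 296.5 in PRMT1FL CPZ CD11c low, against 101.4 ± 25.8 in PRMT1Cx3cr1-KO and 148.7 ± 46.3 in PRMT1FL on normal diet (SD, n = 2 and 3), and 7 of the 9 were at 0 in the knockout CPZ library. Of 8 tested, 5 were called lower in the knockout library, 5 lower in CD11c high and 3 higher in PRMT1FL CD11c low. The part of neutrophils in the levels of the division genes was not tested. Endothelial and mural markers summed to 353.8, 375.3 and 595.4 in the CPZ libraries in that order, against 201.9 ± 14.9 in PRMT1Cx3cr1-KO and 170.3 ± 12.1 in PRMT1FL on normal diet, with 1, 4 and 8 of 10 called higher and 1 lower in each. Oligodendrocyte progenitor markers summed to 647.9, 393.1 and 493.5, against 42.4 and 52.8 in PRMT1Cx3cr1-KO and 18.95 to 44.96 in PRMT1FL on normal diet, with 1, 1 and 2 of 7 called higher. In the CPZ libraries most of that sum was Cspg4, named after its values were seen, with 1807, 576 and 1410 reads, against 33 and 31 in PRMT1Cx3cr1-KO and 11, 15 and 13 in PRMT1FL on normal diet. The paper lists Cspg4 among transcripts enriched in a phagocytic microglia cluster of its single-cell data. The sum therefore cannot be read as an amount of progenitor cells. The median log2 fold of the 7 markers was 0.16, 0.45 and 1.64, and in PRMT1Cx3cr1-KO against PRMT1FL CD11c low it was -1.76, with 6 of 7 below 0. Astrocyte markers had 1, 1 and 5 of 9 called higher and 0, 1 and 0 lower, and oligodendrocyte markers 0 of 8 in each. Monocyte and border macrophage markers had 0, 0 and 2 of 9 called higher and 1, 4 and 0 lower. The part of these other cells was likewise not tested.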

How the data were processed

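RNA was sequenced from 8 libraries of sorted microglia in 5 groups. The authors mapped trimmed single-end reads with Bowtie2, removed duplicates with SAMtools 0.1.19, checked reads with FastQC 0.11.9 and counted and compared genes with HOMER and DESeq2. Their text names hg19, whereas the submitters' notes also list GRCm38 and mm10 and the deposited coordinates are mouse. The deposited tables hold normalised gene signal, reads times 1 factor per library so that the columns of a table share 1 total, beside the authors' own log2 fold changes and p-values, which were not used.

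The reads were recovered from the signal steps: 100% of the values were whole within 0.1, and of 25238 genes 84, none of them described here, were left out because tables differed. The recovered reads were scaled by median-of-ratios size factors (0.5152 to 1.348) and log2(scaled reads + 1) was tested with limma 3.58.1 (R 4.3.3) in 1 fit of 5 groups, with genes of at least 10 reads in 1 library, two-sided, adjusted by Benjamini-Hochberg. The fit was tested on simulated data in 3 comparisons. These were PRMT1Cx3cr1-KO against PRMT1FL on normal diet, PRMT1FL CPZ CD11c low against normal diet, and PRMT1FL CPZ CD11c high against CD11c low. It recovered 43.5%, 38.5% and 32.5% of 2-fold changes in that order, and 97%, 96% and 89.5% of 4-fold changes. False calls numbered 1, 5 and 27 in the 2-fold runs and 3, 4 and 17 in the 4-fold runs. The median squared difference between replicates was 1.76 to 2.33 times that of counting alone, so none was a duplicate. For 12 genes the tables name different transcripts. Alternatives were edgeR 4.0.16, DESeq2 1.42.0, other scalings, filters and pseudocounts, each library left out, a replicate block and each table alone. The genes and lists were chosen with earlier results of these data known. Values in every library are given for Mki67, Top2a and the gene with the most reads of each role; other genes are given by calls and folds, and those singled out were chosen after their values were seen. The promoters printed are the 4 genes with the most reads that hold CCAAT and a CHR or E2F word, plus Top2a. No value column lacked a sample (0).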

Additional observations from a re-analysis of the deposited data

How the results depend on the processing

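In the CPZ comparisons with normal diet the median fold stayed positive under all alternatives run, and the number of genes called higher fell most with no filter on low reads, to 8 in PRMT1Cx3cr1-KO CPZ CD11c low, 9 in PRMT1FL CPZ CD11c high and 9 in PRMT1FL CPZ CD11c low, against 33, 21 and 26; it was 31, 16 and 21 by DESeq2 and 39, 23 and 33 by edgeR. Leaving out 1 normal-diet library gave 18 to 35, 16 to 24 and 17 to 29. Called under every setting were 7, 7 and 8 of the 46 genes in that order. Between the CPZ CD11c low libraries of both genotypes edgeR called 2, and between PRMT1Cx3cr1-KO CD11c low and PRMT1FL CD11c high edgeR called 1 and scaling to a common total 1. With median-of-ratios factors in place of library totals the 46 genes summed to 1094 RPM in PRMT1FL CPZ CD11c high and 1182 in CD11c low, against 992.3 and 1277 RPM. In these pairs and in the genotype comparison signs of small folds turned; the cause was not tested.

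In PRMT1Cx3cr1-KO against PRMT1FL on normal diet, Racgap1 turned to 0.12 by edgeR and 0.14 by DESeq2. Leaving out each library there, the median of the 46 genes ranged from -0.66 to 0.15, Mki67 from -1.36 to 0.60, Top2a from -3.04 to 0.11, Foxm1 from -0.15 to 0.11, Racgap1 from -1.003 to 0.76, Ccna2 from -0.089 to 0.57 and Pcna from -0.13 to 0.038; the sign turned without PRMT1Cx3cr1-KO replicate 1 for all but Pcna, which turned without PRMT1FL replicate 1, and that of Foxm1 also without PRMT1FL replicate 3. In the interaction Pcna ranged from -0.028 (without PRMT1FL replicate 1) to 0.14 and Racgap1 from -0.34 (without PRMT1Cx3cr1-KO replicate 1) to 1.43. With a common total, Hjurp (-0.23) and Ube2c (-0.23) turned in CD11c high against CD11c low, Pcna (-0.10) and Ube2c (-0.069) in PRMT1Cx3cr1-KO against PRMT1FL CD11c low, and Pcna (-0.066) in the interaction. Replicate numbers did not pair the normal-diet libraries, with correlations of deviations of 0.0413 for number 1 and -0.0296 for number 2; with the replicate block 0 of 32 genes were called, and Foxm1 turned to 0.11.

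Over all genes, calls by limma against those of an alternative were 955 against 495 with no filter and 591 and 562 without PRMT1Cx3cr1-KO replicate 1 or 2 in PRMT1Cx3cr1-KO CPZ CD11c low against normal diet, 2000 against 1226 by DESeq2 in PRMT1FL CPZ CD11c high, 1698 against 1013 by DESeq2 in PRMT1FL CPZ CD11c low, 86 against 0 to 564 (highest by edgeR) in PRMT1Cx3cr1-KO against PRMT1FL CD11c low, 348 against 147 to 577 in PRMT1Cx3cr1-KO CD11c low against PRMT1FL CD11c high, 137 against 15 to 574 in CD11c high against CD11c low, 16 against 0 to 288 in the interaction, and 0 against 0 to 12 in the genotype comparison on normal diet, these 4 highest with no filter. The alternative without Hjurp was chosen after seeing the data. Depth limits the normal-diet values: 21 to 30 of the 46 genes had 10 reads there.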
